A study of Mus musculus with 5 samples.

Results

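This report follows 8 genes of synapse organization, Il1rapl1, Il1rapl2, Ptprd, Ptprs, Nrxn3, Nlgn1, Tafa1 and Tafa2, out of 22532 genes counted by single-nucleus RNA sequencing (snRNA-seq) of the mouse central amygdala (CeA). They were taken by symbol, as receptors, ligands and secreted partners around Il1rapl2 and Tafa1, and all 8 were found in the files. The libraries came from C57BL6 mice, and each pooled the CeA of 2 mice, a male and a female. Fed replicates 1 and 2 were from fed mice of 8 weeks. Fed replicate 3 was from fed Htr2a-Cre mice of 12 weeks that carried a Cre-dependent mCherry virus in the CeA. Fasted replicates 1 and 2 were from mice of 8 weeks, fasted for 20 and 21 hours according to the labels. With 3 fed and 2 fasted libraries, every SD given below is between pooled libraries, not between single mice. Every SE is that of a log2 fold change in a model fitted to counts summed per class and library. It draws in part on variance shared across genes and holds no spread between single mice. Exact intervals of shares are over the nuclei of all libraries together. They cover counting error only and hold no spread between libraries.

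IL1RAPL1 and IL1RAPL2 are membrane proteins related to the interleukin-1 receptor accessory protein, and IL1RAPL1 sits on the postsynaptic side, where it binds the presynaptic phosphatase PTPδ, the product of Ptprd. Ptprs encodes PTPσ, a phosphatase of the same LAR type, which binds several other postsynaptic adhesion proteins. Nrxn3 encodes a presynaptic neurexin, and neuroligin 1, from Nlgn1, is a neurexin receptor found mainly at excitatory synapses. TAFA1 and TAFA2 are small secreted proteins made in the brain, and members of that family bind neurexins. Such pairs of proteins across the cleft are thought to help decide which synapses form and with what properties.

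On GRCm39, Il1rapl1 and Il1rapl2 both lie on the X chromosome, at chrX:85784476-87159281 on the minus strand and chrX:136471357-137749670 on the plus strand. Ptprd lies at chr4:75859475-78130198, Ptprs at chr17:56718507-56783537, Nrxn3 at chr12:88689646-90301709, Nlgn1 at chr3:25480379-26386609, Tafa1 at chr6:96090088-96635542 and Tafa2 at chr10:123099901-123577979. Introns and other non-exonic sequence make up 98.4% to 99.5% of 7 of these genes and 73.8% of Ptprs, which spans 65.0 kb. The authors counted intronic reads, so levels were compared between classes and libraries for 1 gene at a time, never between genes.

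Of 23839 deposited barcodes, 7161 nuclei had 500 to 8000 genes and a mitochondrial share of UMIs (unique molecular identifiers, 1 per captured RNA molecule) under 0.8%. They numbered 1151, 1130 and 1438 in the fed libraries and 1708 and 1734 in the fasted libraries, with medians of 6608 to 16367 UMIs. At most 1 barcode was shared by any 2 libraries. Nuclei were sorted into classes by the raw UMIs of marker genes, and none of the 8 genes was used in a gate. The 5673 inhibitory nuclei comprised 3181 in 9 gates, of Prkcd (403 nuclei), Calcrl (211), Dnah5 (478), Sst (253), Dlk1 (253), Vdr (67), Rarb (1018), Foxp2 (391) and Nkx2-1 (107), and 2492 that no gate took. The remainder held 53 excitatory nuclei by Slc17a7 and 428 astrocytes, 217 oligodendrocytes, 116 oligodendrocyte precursors and 81 microglia. Not all gates are of CeA neurons. The study used Nkx2-1 to mark interneurons of the basolateral amygdala. It assigned clusters with Rarb to the amygdalostriatal area and those with Foxp2 to intercalated cells, both outside the CeA. Lhx6, a transcription factor of cortical-type interneurons that was not used in the gates, was at 79.2 ± 21.7 CPM (UMIs of a gene per 1000000 UMIs of the summed nuclei, mean ± SD of libraries, n = 4) in the Nkx2-1 gate and at 22.3 CPM or less in every other class. In the Slc17a7 gate the cortical marker Tbr1 averaged 4.29 CPM, and Slc17a6 averaged 17.2 CPM. Glial nuclei carried neuronal RNA, since Snap25, a gene of the neuronal release machinery, averaged 211 to 340 CPM in the 4 glial classes, against 688 CPM in inhibitory nuclei.

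**Figure D1:**
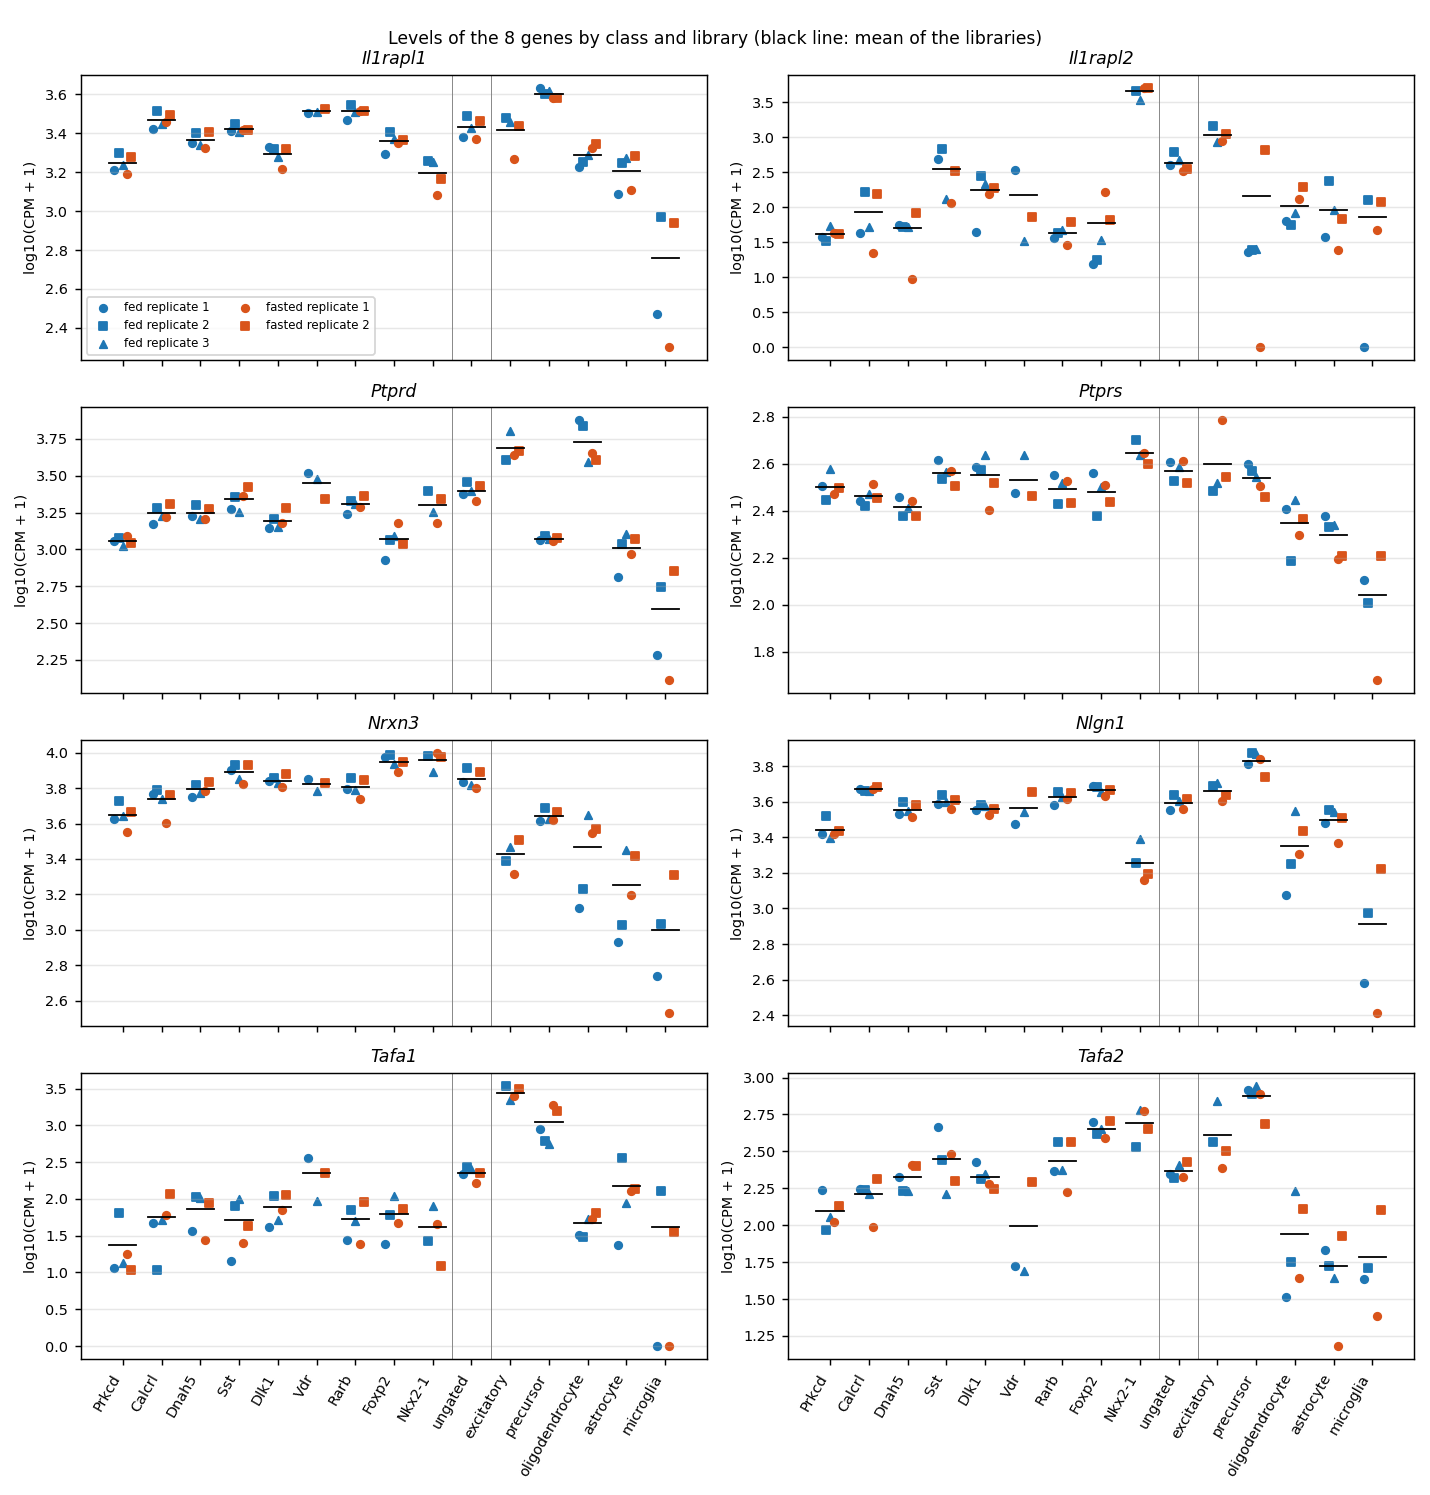
Level of each gene as log10(CPM + 1) on a linear axis (CPM in the summed nuclei of a class), by class and library. Blue marks are the 3 fed and orange marks the 2 fasted libraries, black lines are the means of the libraries with at least 10 nuclei, and vertical lines set off the ungated inhibitory nuclei. Il1rapl2 stands highest in the Nkx2-1 gate and Tafa1 in excitatory nuclei and precursors, while fed and fasted marks are mixed in most classes.

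The first comparison asked how the 8 genes are distributed over inhibitory neurons. Each gate was compared with the mean of the other 8 gates, with the library as a block, and 35 of 72 pairs of gene and gate passed an adjusted p of 0.05, 18 higher and 17 lower. Between 8.32% and 32.2% of the 10031 genes tested passed in a given gate, so a call alone sets none of the 8 genes apart. The study had chosen Il1rapl2 and Tafa1 as markers of a CeA cluster from the fed libraries used here. Their values over the gates are therefore descriptions. Il1rapl2 had by far the largest difference. It was higher by 5.74 on the log2 scale (SE 0.23, adjusted p = 3.46e-24) in the gate of Nkx2-1, a transcription factor of interneurons born in the medial ganglionic eminence.

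In the Nkx2-1 gate Il1rapl2 was at 4588 and 3459 CPM in fed replicates 2 and 3 and at 5141 and 5000 CPM in fasted replicates 1 and 2. Fed replicate 1 had only 9 such nuclei, at 3163 CPM, and was not in the fit. The level was not shared by all nuclei of the gate. After each nucleus was thinned to 4000 UMIs, 61 of 103 nuclei had a UMI of Il1rapl2 (59.2%, exact 95% interval 49.1% to 68.8%), and 55 of these had 5 or more. The other 42 nuclei had 0 and only 6 nuclei lay between, so the gate held nuclei with much Il1rapl2 and nuclei with none seen. The 55 nuclei held 99.3% of the gate's thinned Il1rapl2 UMIs. They averaged 23.1 UMIs of Nxph1, which encodes neurexophilin 1, a secreted ligand of neurexins, against 3.38 UMIs in the 42 nuclei without Il1rapl2.

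The second gate called higher for Il1rapl2 was that of Sst, the somatostatin gene, with a log2 fold change of 1.42 (SE 0.28, adjusted p = 0.000277). There the fed libraries were at 484, 673 and 132 CPM and the fasted ones at 116 and 328 CPM. A single nucleus held 88 of the 110 UMIs of fed replicate 1, and another 459 of the 572 UMIs of fed replicate 2. With nuclei that had a UMI of Lhx6 left out of every gate but Nkx2-1, an alternative chosen after the data were seen, the value in the Sst gate was -0.15 (SE 0.32, adjusted p = 0.885). Against the mean of the other gates, which kept all Nkx2-1 nuclei, the Sst gate was thus not higher without its nuclei with Lhx6. A comparison that also leaves out the Nkx2-1 gate was not made.

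In the Prkcd, Rarb, Dnah5 and Foxp2 gates Il1rapl2 was called lower than the mean of the other gates. It was lower by 1.90, 1.74, 1.52 and 1.70 on the log2 scale. The mean of the other gates includes the Nkx2-1 gate, at 4547 CPM, so the sizes depend in part on that gate. With gate cuts raised by 1 the Dnah5 value was -0.50 and did not pass. Mean levels in these 4 gates were 40.7 to 58.9 CPM, and the share of thinned nuclei with a UMI was lowest in the Prkcd gate (39 of 401, 9.73%) and highest in the Rarb gate (111 of 1006). Microglia, which are not neurons, had a UMI of Il1rapl2 in 10 of 47 thinned nuclei (21.3%, interval 10.7% to 35.7%) and a mean of 72.7 CPM. The median depth before thinning was 4640 UMIs in microglia and 11827 to 15041 in these gates. The shares in those gates were lower than that of microglia. Because the depths differ, this comparison cannot decide whether the gates express Il1rapl2, and the shares are not read either way. The ungated inhibitory nuclei had a higher mean than every gate but Nkx2-1, 433 ± 113 CPM (SD, n = 5), although their range overlapped that of the Sst gate.

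Il1rapl1, the paralog, had another distribution. It was called higher in the Rarb (log2 fold change 0.59, SE 0.06), Vdr (0.52, SE 0.08) and Calcrl (0.36, SE 0.06) gates. It was called lower in the Nkx2-1 (-0.68, SE 0.07), Prkcd (-0.52, SE 0.06) and Dlk1 (-0.35, SE 0.06) gates. In the Nkx2-1 gate, where Il1rapl2 was highest, Il1rapl1 had its lowest mean of the inhibitory classes, with libraries at 1814, 1788, 1210 and 1465 CPM that overlapped those of the Prkcd gate. In the Rarb gate all 5 libraries were at 2932 CPM or more. Over the 9 gates the mean log2 levels of the paralogs had a Pearson correlation of -0.45, given as a description of 9 points from the same libraries.

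The phosphatase genes differed less than Il1rapl2. Ptprd, whose product is the partner of IL1RAPL1, was called higher in the Vdr gate (log2 fold change 0.80, SE 0.11), at 3288, 2996 and 2181 CPM in the 3 libraries with enough nuclei. Smaller differences were called in the Sst (0.33, SE 0.08) and Rarb (0.30, SE 0.08) gates. It was called lower in the Prkcd (-0.72, SE 0.09) and Foxp2 (-0.65, SE 0.09) gates, where it ranged from 1060 to 1241 CPM and from 847 to 1518 CPM. Ptprs passed in the Nkx2-1 gate (0.54, SE 0.09) and, in the other direction, in the Dnah5 gate (-0.40, SE 0.08), and in no other gate. Its mean over libraries lay between 259 and 444 CPM in every inhibitory class.

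Nrxn3 and Nlgn1, which encode proteins that can pair across the synapse, parted in the Nkx2-1 gate. Nrxn3 was higher there by 0.50 (SE 0.06), with 7752 to 9902 CPM. Nlgn1 was lower by 1.10 (SE 0.09), at 1796, 2444, 1440 and 1563 CPM, and no other inhibitory class had a library this low. The lowest value of Nlgn1 in another gate was 2475 CPM, in the Prkcd gate. In the gate of Foxp2, a marker of intercalated cells, both were called higher, Nrxn3 by 0.48 (SE 0.05) and Nlgn1 by 0.46 (SE 0.07). In the Calcrl gate Nlgn1 was higher by 0.47 (SE 0.07) and Nrxn3 lower by 0.33 (SE 0.06). Nlgn1 followed Il1rapl1 more than Nrxn3, with a correlation of mean log2 levels of 0.76 against -0.14 over the 9 gates and of 0.93 against 0.54 over all 15 classes.

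Tafa1 and Tafa2 also had different gates. Tafa1 was called higher in the Vdr gate by 2.09 (SE 0.40, adjusted p = 0.000162), at 356, 92.0 and 224 CPM. A single nucleus held 62 of the 69 Tafa1 UMIs of fed replicate 1, the library at 356 CPM. After thinning, 19 of 67 Vdr nuclei had a UMI of Tafa1 (28.4%, interval 18.0% to 40.7%), against 3 of 47 microglia (6.38%). Tafa2 was called lower in that gate by 1.14 (SE 0.29), at 51.5, 48.0 and 195 CPM. Tafa2 was higher in the Nkx2-1 (1.26, SE 0.18) and Foxp2 (1.15, SE 0.15) gates. In the Foxp2 gate all 5 libraries lay between 390 and 506 CPM, while the 5 Dnah5 libraries lay between 169 and 254 CPM. The Sst libraries, at 162 to 462 CPM, and the Nkx2-1 libraries, at 336 to 604 CPM, overlapped those of the Foxp2 gate. Among the gates, Tafa1 had its lowest mean in Prkcd nuclei, at 22.6 CPM, with a UMI in 21 of 401 thinned nuclei (5.24%), no more than in microglia. As for Il1rapl2, depths before thinning differed, so shares set beside those of microglia are not read either way, here or below.

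The Prkcd gate, marked by the gene of protein kinase Cδ, had the most calls. There 7 of the 8 genes were called lower, against 15.1% of all genes tested (32.2% in either direction), and Ptprs was at -0.08. The 7 include Il1rapl2 and Tafa1, which the study chose as markers of another cluster from the fed libraries used here. The count is therefore a description as far as it rests on them. The log2 fold changes were -1.90 for Il1rapl2, -1.67 for Tafa1, -1.04 for Tafa2, -0.72 for Ptprd, -0.71 for Nrxn3, -0.52 for Il1rapl1 and -0.44 for Nlgn1. The median over the 8 genes was -0.71, and over all genes 0.01. The number of the 8 genes called elsewhere was 6 in the Nkx2-1 gate (31.7% of all genes), 5 in Foxp2 (22.3%), 4 in Rarb (23.1%), 4 in Vdr (10.5%), 3 in Sst (9.98%), 3 in Calcrl (14.6%), 2 in Dnah5 (23.1%) and 1 in Dlk1 (8.32%).

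**Figure D2:**
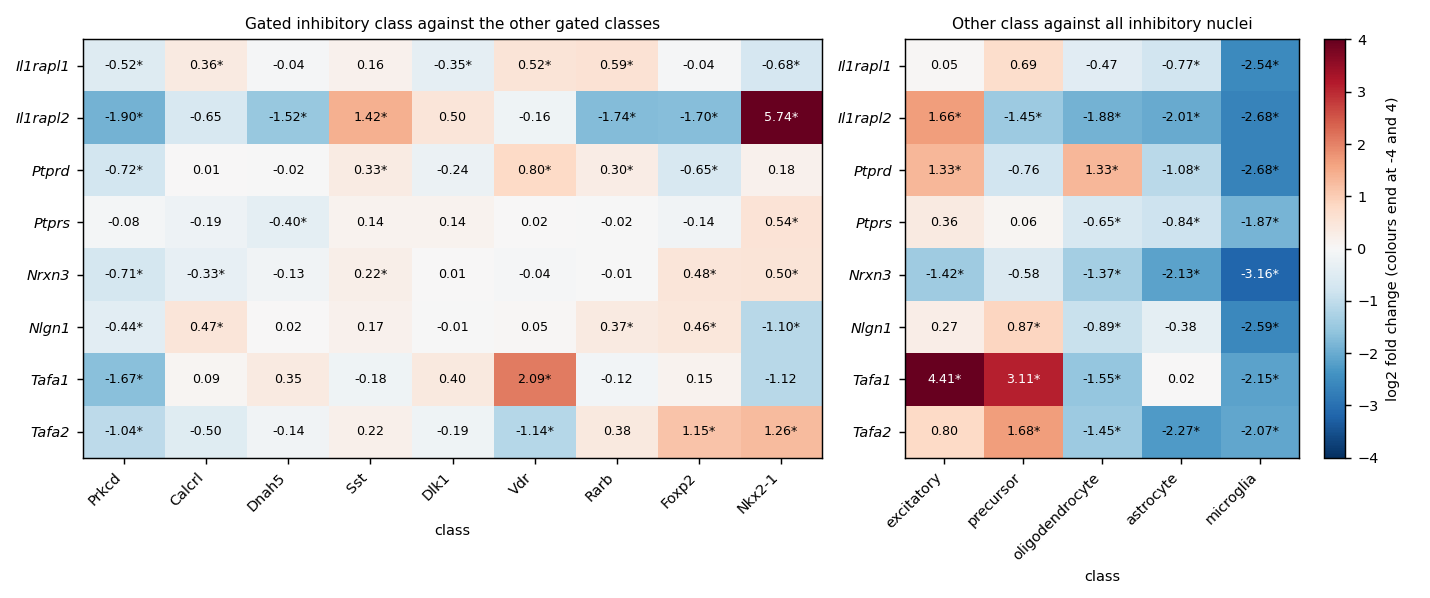
Log2 fold change of each of the 8 genes in each gated inhibitory class against the mean of the other gates (left) and in each other class against all inhibitory nuclei (right), printed in the cells and coloured from blue (lower) to red (higher). Asterisks mark an adjusted p under 0.05 over all genes tested. The Prkcd column holds 7 starred lower values, and the value of 5.74 for Il1rapl2 in the Nkx2-1 gate lies beyond the end of the colour scale.

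The second comparison placed the genes among the major classes of cells. Of 40 pairs of gene and class, 29 were called against all inhibitory nuclei, 7 higher and 22 lower, while 17.3% to 63.5% of 6820 genes were called. Excitatory nuclei had 4 calls (17.3% of all genes). Tafa1 was higher there by 4.41 (SE 0.43, adjusted p = 1.67e-09), at 3397 and 2177 CPM in fed replicates 2 and 3 and at 2503 and 3084 CPM in the fasted libraries. No library with 10 or more nuclei of any other class reached 2177 CPM of Tafa1. After thinning, 52 of 53 excitatory nuclei had a UMI of Tafa1 and 44 had 5 or more. Il1rapl2 was also higher in them, by 1.66 (SE 0.50, adjusted p = 0.0168), with a UMI in 46 of the 53 nuclei, a call that was lost in 3 of 12 alternatives. Ptprd was higher by 1.33 (SE 0.34) and Nrxn3 lower by 1.42 (SE 0.38).

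Oligodendrocyte precursors had 4 calls (39.8% of all genes). Tafa1 was higher in them by 3.11 (SE 0.39), Tafa2 by 1.68 (SE 0.27) and Nlgn1 by 0.87 (SE 0.34, a call lost in 4 of 13 alternatives), and precursors had the highest mean of Tafa2, Nlgn1 and Il1rapl1 of the 15 classes. For Il1rapl1 the 5 precursor libraries lay between 3800 and 4323 CPM, above every library of every other class, but the difference from inhibitory nuclei was 0.69 and did not pass. The call for Il1rapl2, -1.45 (SE 0.54, adjusted p = 0.0320), was made although fasted replicate 2 stood at 657 CPM and the other 4 libraries at 0 to 24.6 CPM. In that library 2 nuclei held 251 of the 258 UMIs. Without fed replicate 1, fed replicate 2, fed replicate 3 or fasted replicate 1 in turn, this call was lost, with an adjusted p of 0.102 to 0.118.

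Oligodendrocytes had 7 calls (38.7% of all genes), 6 of them lower. Ptprd alone was higher, by 1.33 (SE 0.32, adjusted p = 0.00136). Its libraries were at 7494, 6818 and 3895 CPM when fed and at 4503 and 4016 CPM when fasted, so that each was above every library of the 9 gates. Astrocytes had 6 calls (54% of all genes), all lower, and Nlgn1 and Tafa1 were not among them, at -0.38 and 0.02. Microglia had all 8 genes lower (63.5% called in either direction, 36.1% lower), by 1.87 to 3.16. The median of all genes in microglia was -0.28, so relative to it the 8 genes were still lower.

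Lists of partners were read beside the 8 genes. The 72 partner genes comprised other neurexins, neuroligins, LAR-type phosphatases, their ligands, netrin-G ligands, latrophilins with FLRT and teneurin proteins, and adaptors, of which 57 were tested over the gates. In the Nkx2-1 gate 19 were called higher and 7 lower (31.7% of all genes were called), with a median log2 fold change of 0.17. All 5 called neurexin partners were higher there, among them Nxph1 (5.80, SE 0.19), Nxph2 (3.41, SE 0.60), Clstn2 (1.11, SE 0.21) and Clstn3 (0.52, SE 0.10). In the Prkcd gate 8 partners were called higher and 23 lower (32.2% of all genes were called), with a median of -0.17. The lower ones included Slitrk3, a ligand of LAR-type phosphatases (-2.58, SE 0.29), Clstn2 (-2.32, SE 0.24) and Adgrl3, a latrophilin (-1.20, SE 0.08). Il1rap, the interleukin receptor accessory protein that also binds PTPδ, was higher in Prkcd nuclei by 1.38 (SE 0.13), unlike the Il1rapl genes.

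In the Foxp2 gate 15 partners were higher and 11 lower (22.3% of all genes were called). Ntng1, a netrin-G (2.25, SE 0.20), and Mdga1, which binds neuroligins (1.88, SE 0.22), were higher and Il1rap lower (-1.73, SE 0.21). In the Vdr gate 11 were higher and 7 lower (10.5% of all genes were called). Adgrl2 (1.39, SE 0.11) and Slitrk3 (1.96, SE 0.28) were up and Tenm2, a teneurin (-2.06, SE 0.21), was down. In excitatory nuclei 9 of 51 tested partners were higher and 8 lower (17.3% of all genes were called). The higher ones included C1ql3, a secreted C1q-like protein (6.53, SE 0.30), and Ntng2 (4.54, SE 0.30). In precursors 16 were higher and 13 lower (39.8% of all genes were called). The neurexin gene Nrxn2 (1.42, SE 0.26) and both other neuroligin genes, Nlgn2 (1.20, SE 0.21) and Nlgn3 (1.07, SE 0.24), were higher in precursors, as was C1ql1 (7.34, SE 0.40). Nrxn3 was at -0.58 there and did not pass.

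The genes whose mean log2(CPM + 1) over the 15 classes was most like that of Il1rapl2, among 7206 genes, were Flt3 (Pearson correlation 0.85), Syt17 (0.83), Ankrd24 (0.82), Kcnmb2 (0.82) and Col19a1 (0.82). Of these, 4 had their highest class in the Nkx2-1 gate, and Syt17 had it in excitatory nuclei. For Tafa1 they were Stim2 (0.82), Creg2 (0.80), Glis1 (0.79), Zfpm2 (0.79) and Xylt1 (0.77), each with excitatory nuclei and precursors as its 2 highest classes. The classes come from the same 5 libraries and differ in depth, so these values are descriptions.

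The third comparison asked whether the 8 genes go together within the 2492 inhibitory nuclei that no gate took. From the fed libraries used here, the study had marked its largest cluster of the central medial subregion by Il1rapl2 and Tafa1. No gate was set for that cluster. The relation of these 2 genes below is therefore a description and no separate test. Of the 2492 nuclei, 2312 had 4000 UMIs or more and were thinned to 4000. There Il1rapl2 had a UMI in 24.9% of nuclei, within the interval of its share in microglia (10.7% to 35.7%), and Tafa1 in 25.8%, against 6.38% of microglia. The number of UMIs per nucleus differed, since 176 ungated nuclei had 5 or more of Il1rapl2, against 0 of 47 microglia. Those 176 nuclei held 81.0% of the Il1rapl2 UMIs of the thinned ungated nuclei. A group of 348 nuclei with 2 or more UMIs of Il1rapl2 was compared with 1736 nuclei that had 0, with the library as a block. Of the other 7 genes, 2 were called (8.18% of all genes). Tafa1 was higher by 1.48 (SE 0.10). It averaged 1.71, 2.05 and 1.85 UMIs per nucleus in the Il1rapl2 nuclei of the 3 fed libraries and 1.37 and 1.32 in those of the fasted libraries, against 0.423 to 0.815 in nuclei without. The mean was thus higher in the Il1rapl2 nuclei of each of the 5 libraries, while single nuclei overlapped. Tafa1 was seen in 21.5% of nuclei without Il1rapl2, in 48.5% at 2 to 6 Il1rapl2 UMIs and in 30.3% at 7 or more. Il1rapl1 was lower by 0.19 (SE 0.06, adjusted p = 0.0250), and this call was lost in 10 of 17 alternatives.

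Seen from the other side, the summed level of Il1rapl2 was not called different in all ungated nuclei. Nuclei with 2 or more UMIs of Tafa1 (362) against those with 0 (1715) differed in Il1rapl2 by 0.13 (SE 0.09), which did not pass. The share of nuclei with an Il1rapl2 UMI did differ, at 44.2% against 20.5%. It was higher in the Tafa1 nuclei of every library, for example 53.1% against 22.0% in fed replicate 2 and 38.5% against 23.5% in fasted replicate 2. The Tafa1 nuclei were called higher for Nlgn1 (0.35, SE 0.05) and Ptprd (0.28, SE 0.05) and lower for Tafa2 (-0.34, SE 0.11), 3 of 7 genes (7.97% of all genes). The call for Tafa2 was lost in 8 of 17 alternatives. The partner Nxph1 was higher by 3.63 (SE 0.12) in the Il1rapl2 nuclei and lower by 1.44 (SE 0.14) in the Tafa1 nuclei. In all, 9 of 48 tested partners were called with Il1rapl2 (8.18% of all genes) and 12 with Tafa1 (7.97% of all genes). Ntng1 fell by 0.51 (SE 0.15) with Il1rapl2 and rose by 0.71 (SE 0.12) with Tafa1.

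The Il1rapl2 nuclei were of different kinds. In groups set after the values were seen, 206 nuclei had 2 to 6 UMIs of Il1rapl2 and 142 had 7 or more. Of the 142, 60 (42.3%) had 2 or more UMIs of Nxph1, against 19 of the 206 (9.22%) and 77 of the 1736 without Il1rapl2 (4.44%). Mean Tafa1 was 0.567 UMIs at 0 Il1rapl2 UMIs, 1.14 at 1, 1.81 at 2 to 6 and 1.38 at 7 or more. In each of the 5 libraries it was higher at 2 to 6 than at 0, for example 0.815 and 2.57 in fed replicate 2 and 0.603 and 1.24 in fasted replicate 2.

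When ungated nuclei with 2 or more Nxph1 UMIs were left out, also chosen after the data were seen, both values were higher. Nxph1 was higher in the Il1rapl2 nuclei and lower in the Tafa1 nuclei, so this choice by itself favours higher values. The values below therefore describe the subset and are no separate test of the relation. Tafa1 was higher with Il1rapl2 by 1.73 (SE 0.10), and Il1rapl2 was higher with Tafa1 by 1.38 (SE 0.10, adjusted p = 2.67e-25). In these nuclei Il1rapl2 averaged 0.642 UMIs where Tafa1 was 0 and 1.75 UMIs where Tafa1 had 2 or more, and in every library the second value was the higher. With only the Lhx6 nuclei left out the value for Il1rapl2 was 0.67 (SE 0.10, adjusted p = 3.97e-07). Ptprd was also called higher with Il1rapl2 in both of these subsets, by 0.39 (SE 0.06) without the Nxph1 nuclei and by 0.27 (SE 0.07) without the Lhx6 nuclei, while in all ungated nuclei it was at 0.18 and did not pass.

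**Figure D3:**
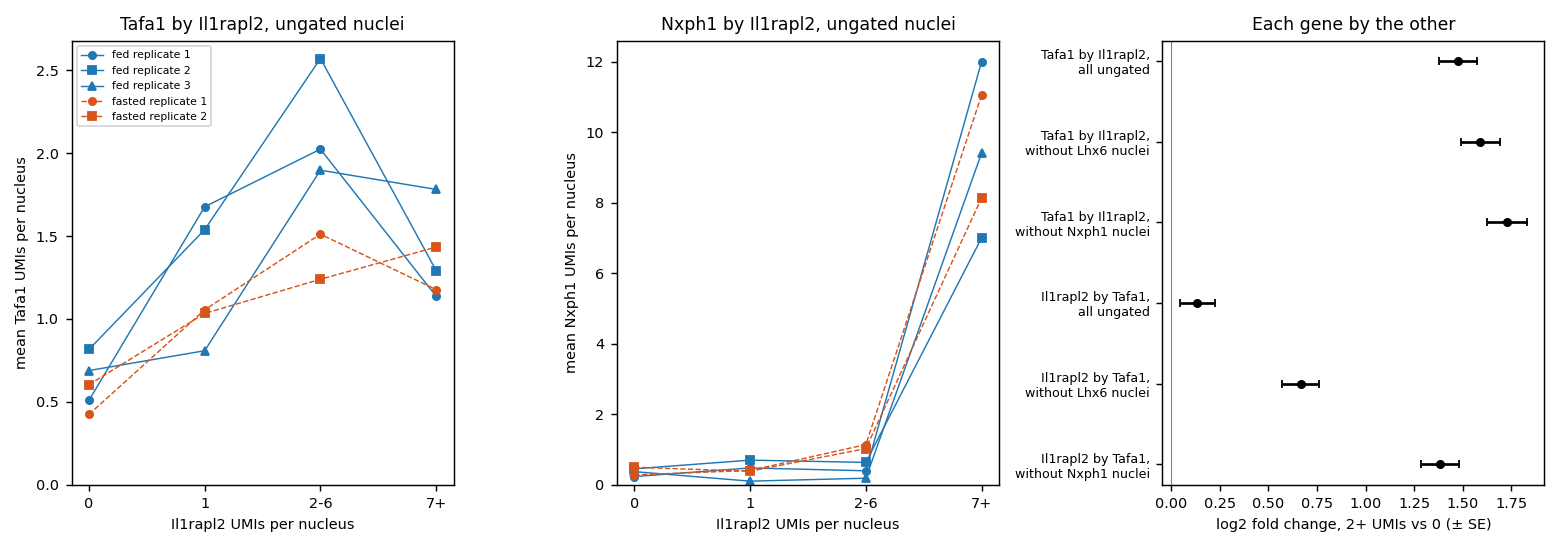
Left and centre, mean UMIs of Tafa1 and Nxph1 per ungated inhibitory nucleus, thinned to 4000 UMIs, by its number of Il1rapl2 UMIs, with 1 line per library (solid blue fed, dashed orange fasted). Right, log2 fold change (± SE) of each of Il1rapl2 and Tafa1 between nuclei with 2 or more UMIs of the other and nuclei with 0, in all ungated nuclei and without those carrying Lhx6 or Nxph1. Mean Nxph1 is highest at 7 or more Il1rapl2 UMIs in every library, and the value for Il1rapl2 by Tafa1 goes from 0.13 to 1.38 when Nxph1 nuclei are left out.

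The last comparison was between fed and fasted mice. Median mitochondrial shares of kept nuclei were 0.136%, 0.0788% and 0.0529% in the fed libraries and 0.317% and 0.237% in the fasted ones. Deposited barcodes numbered 4657, 2347 and 1694 in the fed libraries and 7850 and 7291 in the fasted ones. Neither measure overlapped between the groups, and their part in the results below was not tested. Across all inhibitory nuclei none of the 8 genes passed the edgeR test, while 1 of 13521 genes did (0.0074%), and 0 of 8 had an unadjusted p under 0.05 (5.25% of all genes). Log2 fold changes, fasted minus fed, ran from -0.20 (Tafa1, SE 0.14) to 0.01 (Ptprd, SE 0.11), and fed and fasted libraries overlapped for all 8. No adjusted p passed in DESeq2, in the likelihood ratio test or with the replicate number as a block, which was taken to pair libraries of the same batch. With the block Tafa1 and Il1rapl2 had an unadjusted p under 0.05, as 12% of all genes did. Il1rapl2 ranged from 262 to 461 CPM when fed and was at 253 and 369 CPM when fasted.

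Within 11 classes, 1 of 87 pairs of gene and class passed, and 9 of the 87 had an unadjusted p under 0.05, against 5.31% of all 90302 pairs of a tested gene and a class. Il1rapl2 in precursors did not pass the filter on low counts. The share of all genes that passed was 0% in the Calcrl gate, oligodendrocytes and astrocytes, 0.00825% in ungated nuclei, 0.00936% in the Rarb gate, 0.0211% in Foxp2, 0.054% in Prkcd, 0.0725% in Sst, 0.142% in Dnah5 and 0.152% in Dlk1. The pair that passed was Tafa1 in oligodendrocyte precursors, where 0.113% of 3526 genes passed. The fed libraries were at 878, 613 and 562 CPM and the fasted libraries at 1902 and 1584 CPM, and the groups did not overlap. The log2 fold change was 1.37 (SE 0.23, adjusted p = 0.0426). The rise was spread over nuclei. The median nucleus was at 763, 527 and 416 CPM in the fed libraries and at 1857 and 1763 CPM in the fasted ones. After thinning, 2 of 9, 5 of 21 and 3 of 22 fed nuclei had 5 or more UMIs of Tafa1, against 9 of 13 and 20 of 36 fasted nuclei. Snap25 was at 187, 330 and 310 CPM in fed and 311 and 512 CPM in fasted precursors, and its part in the result was not tested.

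This call rested on 15 to 42 precursor nuclei per library. It was lost without each fed library in turn (adjusted p 0.0898, 0.160 and 0.406, with log2 fold changes of 1.24 to 1.55) and with the replicate block (1.24, SE 0.29, adjusted p = 0.937). A test of the difference itself, added after the value was seen, gave a fasting effect of Tafa1 in precursors that was higher than that in inhibitory nuclei by 1.59 (SE 0.30, adjusted p = 0.000449), where 0.095% of 11579 genes passed. This call did not hold in DESeq2 (adjusted p = 0.400), without fed replicate 2 (0.0915) or without fed replicate 3 (0.233). The same test called 1 other of the 8 genes, Il1rapl2 (3.70, SE 0.50, adjusted p = 1.25e-09), whose precursor UMIs in the fasted libraries were 0 and 258, with 251 of the 258 in 2 nuclei. DESeq2 did not call it (1.58, SE 2.08), and without fasted replicate 2 it was at -9.84 (SE 5.12). Il1rapl2 had failed the filter on low counts in precursors alone and entered this test through the inhibitory nuclei. Its p is therefore not read as a result.

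The remaining pairs did not pass without the block. The nearest was Il1rapl2 in the Foxp2 gate, at 14.4, 16.8 and 33.1 CPM in the fed and 164 and 65.9 CPM in the fasted libraries, a log2 fold change of 2.00 (SE 0.38, adjusted p = 0.0868). Single nuclei held 15 of its 43 UMIs in fasted replicate 1 and 53 of its 138 UMIs in fasted replicate 2. In the ungated inhibitory nuclei Il1rapl2 was at 400, 609 and 476 CPM when fed and at 326 and 357 CPM when fasted, without overlap, with a log2 fold change of -0.56 (SE 0.18, adjusted p = 0.708). Tafa1 in the same nuclei was at 217, 268 and 251 CPM when fed and at 164 and 221 CPM when fasted, with overlap, at -0.37 (SE 0.16, adjusted p = 0.990). After thinning, 14.7%, 21.9% and 16.2% of ungated nuclei had 2 or more Il1rapl2 UMIs in the fed libraries, and 11.9% and 14.8% in the fasted ones. Those nuclei averaged 8.92, 10.2 and 9.55 UMIs of Il1rapl2 when fed and 11.7 and 9.67 when fasted. Both measures overlapped between fed and fasted libraries. The fed and fasted libraries did not overlap in 15 of the 87 pairs, and over all tested genes they did not overlap in 19.7% of pairs.

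With the replicate block 12 of the 87 pairs passed, against 2.12% over all genes and classes and 0% to 13.2% by class, and Tafa1 in precursors was not one of them. The block leaves fed replicate 3 without a partner, so these values compare 2 pairs of libraries. With so few libraries, their SEs and adjusted p rest mainly on a variance estimate shared across genes. They say little of the spread of a single gene between libraries. In ungated nuclei Il1rapl2 fell by 0.57 (SE 0.10, adjusted p = 1.81e-06) and Tafa1 by 0.36 (SE 0.09, adjusted p = 0.00673), where 3.09% of genes passed. In the Foxp2 gate Il1rapl2 rose by 2.35 (SE 0.31, adjusted p = 2.09e-08, 1.44% of genes). In the Sst gate it fell by 1.45 (SE 0.19, 0.931% of genes), the gate where single nuclei held 80.0% and 80.2% of the UMIs of fed replicates 1 and 2. Tafa1 rose by 1.77 (SE 0.35) in the Calcrl gate (0.561% of genes), where 1 nucleus held 84 of the 152 UMIs of fasted replicate 2. It fell by 1.81 (SE 0.36) in the Prkcd gate (1.28% of genes), where 1 nucleus held 31 of the 79 UMIs of fed replicate 2. Shares of nuclei with a UMI of Il1rapl2 in the Foxp2 gate and of Tafa1 in the Prkcd gate were no more than in microglia. As above, depths before thinning differed, so these shares are not read either way.

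The other 6 calls of the blocked fit were in glia, 4 in oligodendrocytes (13.2% of genes) and 2 in astrocytes (3.65% of genes). In oligodendrocytes Nrxn3 rose by 1.24 (SE 0.23), Il1rapl2 by 1.56 (SE 0.48) and Nlgn1 by 0.67 (SE 0.24), and Ptprd fell by 0.77 (SE 0.21). In astrocytes Nrxn3 rose by 1.08 (SE 0.27) and Il1rapl2 fell by 1.68 (SE 0.37), where 1 nucleus held 60 of the 94 Il1rapl2 UMIs of fed replicate 2. In both classes Snap25 was higher in the fasted libraries than in fed replicates 1 and 2. Ptprd in oligodendrocytes and Il1rapl2 in astrocytes went the other way. In oligodendrocytes Snap25 was at 158 and 259 CPM in fed replicates 1 and 2 and at 292 and 493 CPM in the fasted libraries. Oligodendrocytes of fed replicate 3 had Snap25 at 498 CPM and Nrxn3 at 4454 CPM, each above both fasted libraries. In astrocytes Snap25 was at 104 and 164 CPM in fed replicates 1 and 2 and at 166 and 389 CPM in the fasted libraries. Astrocytes of fed replicate 3 had Snap25 at 307 CPM and Nrxn3 at 2816 CPM, the latter above both fasted libraries. The part of neuronal RNA in these calls was not tested.

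**Figure D4:**
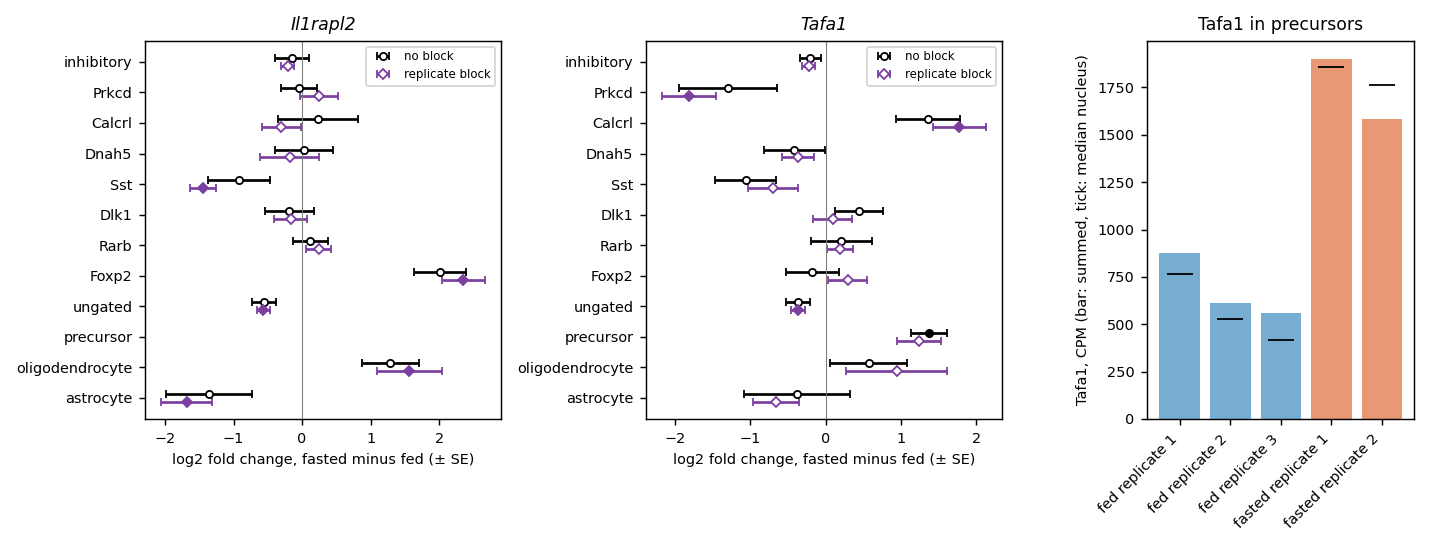
Left and centre, log2 fold change (± SE) of Il1rapl2 and Tafa1 between fasted and fed libraries in each class, without a block (black circles) and with the replicate number as a block (purple diamonds), with filled marks for an adjusted p under 0.05. Right, Tafa1 in precursors by library, as CPM of the summed nuclei (bars from 0) and of the median nucleus (ticks). Tafa1 in precursors is the only filled black mark, with fed bars at 562 to 878 CPM and fasted bars at 1584 and 1902 CPM.

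Differences of the fasting effect between the inhibitory classes were tested in 1 model with all classes. None of the 8 genes passed in edgeR, in the likelihood ratio test or in DESeq2, while 3 of 10395 genes passed in edgeR (0.0289%). At an unadjusted p under 0.05 the edgeR count was 1 of 8, which was Tafa1. The share of all genes at that threshold is not reported here, so the count is not read as a result. Of 554 pairs of partner gene and class, none was called between fed and fasted libraries by edgeR without a block or by DESeq2. The likelihood ratio test called 1. In edgeR 30 of the pairs had an unadjusted p under 0.05, against 5.31% of all pairs. With the replicate block 26 of these pairs were called, against 2.12% of all pairs of a tested gene and a class.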

How the data were processed

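Nuclei of the CeA were isolated from pooled tissue of 2 mice per library and sequenced with 10x Chromium v3.1 chemistry. The authors deposited raw UMI counts per gene and barcode, without normalization. Their methods and the matrix headers name Cell Ranger 5.0.0, with intronic reads counted on GRCm39, while the submitters' processing notes name version 2.1.1 and mm10. Positions are from GENCODE vM39 on GRCm39, and all 8 genes matched by identifier.

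Nuclei with 500 to 8000 genes and under 0.8% mitochondrial UMIs were kept. Gates were applied in order. Glia had 4 or more UMIs of 1 glial list from at least 2 markers, more than 2 times the sum of Gad1, Gad2, Slc32a1 and Slc17a7. Excitatory nuclei had 2 or more UMIs of Slc17a7, above Gad1 and Gad2. Inhibitory nuclei had a UMI of Gad1 or Gad2 and then passed the first of Nkx2-1 (1 UMI), Foxp2 and Rarb (5 UMIs and 5 per 10000), Vdr (2), Dnah5 (3), Dlk1 (2), Calcrl (2), Prkcd (3) and Sst (2). In all, 584 nuclei stayed unassigned. Scrublet in scanpy 1.11.5 called 92 doublets (1.28%), which were kept. The members, gene lists and gates were chosen with earlier results of these data known.

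Counts were summed per class and library and tested with edgeR 4.0.16 (quasi-likelihood test, TMM, filterByExpr) over all genes, with Benjamini-Hochberg adjusted p under 0.05 as a call and two-sided tests throughout. A class entered the fed and fasted test with 10 nuclei in every library, and the other tests with 10 nuclei in 3 libraries. The named partners are the 4 or fewer with the smallest adjusted p per list. Shares come from nuclei thinned to 4000 UMIs, with exact intervals that cover counting error only. The study's supplement puts the first fed and fasted libraries in 1 batch, the second in another, and a further fed library in its own. That this last one is fed replicate 3 was inferred from the numbering. Deviations from the group means over 8454 genes in inhibitory nuclei correlated at 0.51 and 0.75 in the pairs of replicates 1 and 2, and fed replicate 3 correlated at 0.47 with fasted replicate 1. With 2 fasted libraries, a fed library's values with each differ in sign alone, so the pairing rests on the supplement. Alternatives were RLE size factors, no filter on low counts, the likelihood ratio test, DESeq2 1.42.0, other cuts on nuclei, gates, doublets and splits, the block, and each library left out. The tests were run on simulated data first. In the kept nuclei, libraries hold 9763452 to 29703855 UMIs. No table of protein sequences was used here, and some genes of the lists are not reported here.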

Additional observations from a re-analysis of the deposited data

Results flagged for a closer look

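The fasting effect of Tafa1 in oligodendrocyte precursors minus that in inhibitory nuclei was 1.59 on the log2 scale (SE 0.30, adjusted p = 0.000449), a difference of effects between 2 classes under the same contrast. Tafa1 was higher in both fasted libraries than in all 3 fed libraries in precursors, while fed and fasted libraries overlapped in inhibitory nuclei. The call was lost in DESeq2 (adjusted p = 0.400), without fed replicate 2 (0.0915) and without fed replicate 3 (0.233). The same difference for Il1rapl2 was 3.70 (SE 0.50, adjusted p = 1.25e-09). It rested on fasted replicate 2, where 2 nuclei held 251 of the 258 Il1rapl2 UMIs of the precursors, and it was not called in DESeq2. Without that library the value was -9.84. Il1rapl2 had failed the filter on low counts in precursors alone and entered this test through the inhibitory nuclei. Its p is therefore not read as a result. Both tests are from edgeR's quasi-likelihood fit and were chosen after the value of Tafa1 in precursors had been seen.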

How the results depend on the processing

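Limits come first. The comparison of feeding states had 3 and 2 libraries of pooled mice, of which fed replicate 3 differed in genotype and age, and classes such as precursors held as few as 15 nuclei in a library. Of the single values followed through the alternatives chosen at the start other than leaving out a library, 558 kept their direction and call, 21 lost the call, 5 shares moved with the depth and 1 reversed. With a library left out, 331 kept both, 20 lost the call and 2 reversed.

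The count of fasting calls within classes was 6 without a filter on low counts, 2 in the likelihood ratio test, 2 in DESeq2, 0 of 64 with nuclei under 4000 UMIs left out, and 0 to 3 with each library left out. With the replicate block it was 12, and in all inhibitory nuclei the block changed no call. The fasting effect differed between classes for 2 genes without a filter. Excitatory and glial classes gave 17 of 24 calls with 1500 to 8000 genes and mitochondrial UMIs under 0.5%. The split by Il1rapl2 gave 1 call in the likelihood ratio test, 1 in DESeq2, 4 with gate cuts raised by 1, and 1 to 2 with each library left out. Apart from the replicate block, shares of all genes called under these settings are not reported here.

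Il1rapl2 reversed in the Sst gate without Lhx6 nuclei (-0.15), in the fasting effect over inhibitory nuclei without fed replicate 2 (0.14) and without fasted replicate 1 (0.05), with a range of -0.39 to 0.14 over the libraries left out, and by the Tafa1 split with gate cuts raised by 1 (-0.19), values that did not pass in either direction except the first, which passed before. The difference for Tafa1 between precursors and inhibitory nuclei lost its call in DESeq2 (1.57) and without fed replicates 2 or 3, and ranged from 1.29 to 1.89 with each library left out. Precursors could not be fitted at 10 nuclei per library with stricter cuts, and were fitted at 5. The cause of these changes was not tested.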
